A study of Homo sapiens with 12 samples.

Results

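The genes described here are 10 members of the bone morphogenetic protein (BMP) pathway and of the ID family, chosen by symbol: BMP1, BMP4, BMP8A, BMP8B, BMPER, SMAD6, SMAD7, ID1, ID2 and ID3. Each matched 1 entry of the count table, so the set is 10 of the 12451 entries used. They were measured by RNA-seq in MDA-MB-231-ERβ cells, a single line derived from a triple negative breast cancer (TNBC) cell line that carries full length estrogen receptor β (ERβ, gene ESR2) under a doxycycline (dox) inducible promoter. The study asked how estradiol (E2), the ligand of ERβ, alters the response of these cells to tumor necrosis factor α (TNFα), a cytokine that activates NFκB. Triplicate cultures were exposed to 1 nM E2 or to vehicle over 5 days, with TNFα at 20 ng/ml present for the closing 3 h in part of them. The 12 libraries form 4 groups of 3, namely vehicle (no E2 and no TNFα), TNFα (vehicle with TNFα), E2, and E2+ TNFα. All of them are described as grown with dox, including the controls, but dox is missing from the labels of the E2+ TNFα group, for which it is taken from the methods. The study's methods speak in general of biological replicates with technical replicates in each assay, but the labels do not say whether the triplicates of a group come from separate experiments, so the p-values measure the spread between these samples of one line, which may be technical.

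BMPs are secreted ligands that bind paired type 1 and type 2 serine/threonine kinase receptors, which phosphorylate SMAD1, SMAD5 and SMAD9. These join SMAD4 in the nucleus and raise transcription of target genes. The ID genes are the classic early targets of the pathway, and their products bind E proteins such as TCF3 and keep them off DNA. SMAD6 and SMAD7 are inhibitory SMADs, targets that feed back on the receptors. In breast epithelium ID1 and ID3 are known for roles in proliferation and metastasis, and BMP4 for effects on invasion.

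Reads assigned to genes came to 35.8, 37.5 and 39.9 megareads (M) in the vehicle libraries, to 30.5, 30.2 and 19.5 M in the TNFα libraries, to 15.8, 7.65 and 11.9 M in the E2 libraries, and to 16.8, 27.1 and 36.7 M in the E2+ TNFα libraries. Levels are given as counts per megaread (CPM, counts per M), scaled with TMM factors, where 1 gene is compared between libraries. They are given as RPKM (CPM per kilobase of exon) where genes are compared with each other. The vehicle libraries stood apart from the other 9 in a way that followed base composition. Across the 11303 genes tested, the log2 fold change of E2 relative to vehicle had a Spearman correlation of 0.66 with the GC content of a gene's exons, and that of TNFα relative to vehicle one of 0.71. In the comparisons without vehicle the correlations were -0.21 (E2+ TNFα relative to TNFα) and -0.33 (E2+ TNFα relative to E2). Correlations with exon length were -0.38 and -0.31 in the comparisons of E2 and TNFα with vehicle, 0.05 in E2+ TNFα relative to TNFα and 0.46 in E2+ TNFα relative to E2. The exons of SMAD6 and BMP1 hold 62.2% and 61.4% GC, which places them at the 90.1 and 87.6 percentiles of all entries, and those of ID2 and BMPER hold 44.1% and 46.7%, at the 29.7 and 39.6 percentiles. Each comparison with vehicle is therefore given with its value after removal of the trend with GC content and length. Whether the difference comes from the preparation of the vehicle libraries or from the cells cannot be told apart. The study's methods describe a correction of batches with RUVseq on housekeeping genes, but neither they nor the labels say which libraries formed a batch. Nor can fewer cells that express a gene be told apart from less RNA of it in each cell.

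The libraries expressed the genes that mark this line. The 5 markers VIM, CD44, AXL, CAV1 and ESR2 were all in the table, with a summed level of 4052 to 5241 CPM, and AXL was the most abundant. ESR2 itself lay between 229 and 508 CPM in every library. Of 6 luminal genes that the line should lack, ESR1, PGR and FOXA1 were not among the entries, and ERBB2 accounted for most of a summed 103 to 174 CPM. CDH1 and GATA3 differed in opposite directions with E2. CDH1 ranged from 2.55 to 3.56 CPM in vehicle and from 32.4 to 53.6 CPM in E2 libraries. It ranged from 1.78 to 2.13 CPM in TNFα and from 34.8 to 43.9 CPM in E2+ TNFα libraries. GATA3 was at 7.49 to 7.80 CPM in vehicle and 3.67 to 6.53 CPM in E2 libraries. In TNFα and E2+ TNFα libraries GATA3 was at 11.8 to 14.6 CPM and 5.01 to 6.83 CPM. None of 3 endothelial markers was among the entries, and of 4 leukocyte markers only CD68 was. The 4 fibroblast markers in the table (COL1A1, COL1A2, PDGFRB and LUM, of 5 listed) summed to 23.0 to 26.6 CPM in the vehicle and TNFα libraries and to 5.98 to 13.5 CPM in the 6 libraries with E2. PDGFRB was the most abundant and DCN was not among the entries. With E2 relative to vehicle the 3 more abundant members were all lower without overlap, with means of 11.04 and 4.17 CPM for COL1A1, 4.21 and 0.206 CPM for COL1A2 and 10.2 and 2.83 CPM for PDGFRB in vehicle and E2 libraries. In TNFα-treated cells they did not move together, as PDGFRB was at 18.1 to 19.4 CPM in TNFα and at 4.93 to 6.14 CPM in E2+ TNFα libraries, whereas COL1A1 overlapped between these groups (3.87 to 6.02 and 4.47 to 6.86 CPM) and COL1A2 and LUM were under 1 CPM in both. Their part in the results below was not tested.

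Per length of exon, BMP4 and ID3 had the highest means of the 10 genes in every group. In vehicle ID3 led with 22.2 ± 1.34 RPKM (SD, n = 3), followed by BMP4 with 13.9 ± 0.0674 and BMP1 with 6.97 ± 0.760. ID1 (4.65 ± 0.893) and BMP8B (4.25 ± 0.208) overlapped, as did SMAD7 (2.60 ± 0.125) and BMPER (2.42 ± 0.170). ID2 (1.35 ± 0.173), BMP8A (0.687 ± 0.0745) and SMAD6 (0.110 ± 0.0625) were the lowest. With E2 the order became BMP4 (71.3 ± 2.87), ID3 (41.5 ± 5.55), BMP1 (22.8 ± 2.62), ID1 (17.9 ± 3.65), BMP8B (14.0 ± 0.822) and SMAD7 (9.62 ± 1.32), with BMP8A at 1.58 ± 0.0684 and ID2, SMAD6 and BMPER under 1 RPKM. Only the neighbours BMP1 and ID1, and SMAD6 and BMPER, overlapped in that order. BMPER thus stood 7th of 10 in vehicle and last with E2.

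**Figure D1:**
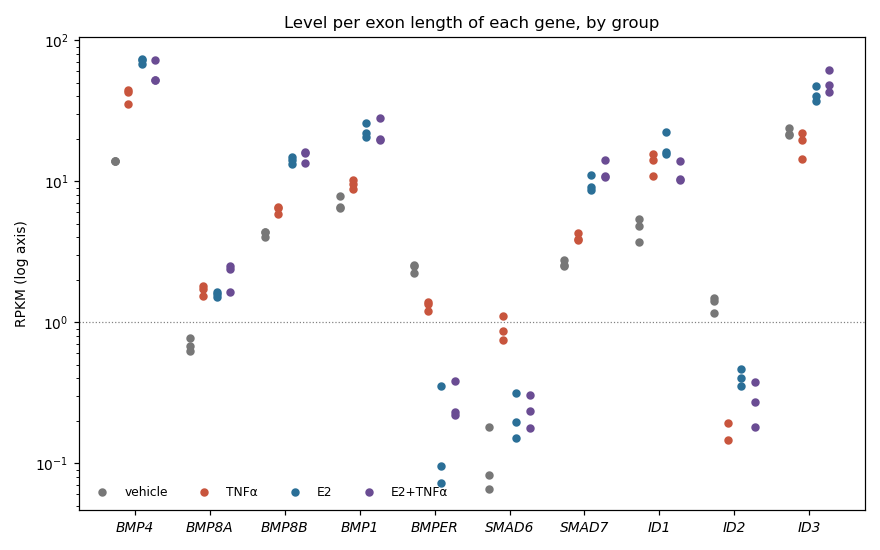
Level of each of the 10 genes in RPKM on a log axis, with 1 point per library and colours for the 4 groups. The dotted line marks 1 RPKM. TNFα replicate 3, which had 0 reads of ID2, cannot be drawn on a log axis and is left out. BMP4 and ID3 have the highest means in each group, although ID3 overlaps with ID1 in the TNFα libraries. BMP8A, BMPER, ID2 and (in 1 library) SMAD6 cross the line at 1 RPKM.

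A gene was tested if it reached 1 RPKM in at least 3 libraries, here with RPKM scaled by library size alone and without TMM factors. BMP1, BMP4, BMP8B, ID1, ID3 and SMAD7 (6 genes) did so in all 12. BMP8A did so in the 9 treated libraries, BMPER in 6 (vehicle and TNFα) and ID2 in 3 (vehicle only). Each of these 3 thus entered the test only through groups in which it was high, which favours a difference from the other groups, so counts and medians over the 9 genes are given as a description. SMAD6 reached 1 RPKM in 1 library and was not tested in the main fit. Its values come from a fit of all 12443 entries with a read, added after its levels had been seen. A gene is said below to have risen or fallen when its adjusted p (Benjamini-Hochberg over all genes tested, quasi-likelihood F test of edgeR) was at most 0.1. It is called past the study's thresholds when in addition its p was under 0.05 and its log2 fold change at least 1.5 in size.

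Relative to vehicle, E2 was accompanied by higher levels of 7 of the 9 tested genes and lower levels of BMPER and ID2, all at an adjusted p of at most 0.1, as were 40.1% of all genes tested upward and 41.7% downward. The 5 past the study's thresholds in the upward direction were BMP4, ID1, SMAD7, BMP8B and BMP1, and the 2 in the downward direction were BMPER and ID2. Of all genes tested 30.5% passed the thresholds in this comparison, 9.87% upward and 20.6% downward. This main fit has no RUVseq correction. The study, which applied one, reported fewer genes for E2 and for TNFα relative to vehicle than passed the same thresholds here. The median log2 fold change was 1.68 over the 9 genes and -0.02 over all genes. Among the 6 genes that reached 1 RPKM in every library, 5 were past the thresholds upward and none downward. All 9 showed no overlap between the E2 and vehicle libraries, which was true of 81% of all genes. With the GC and length trend removed 3 of the 9 remained past the thresholds, namely BMP4 at 1.56, BMPER at -3.18 and ID2 at -1.503 on the log2 scale. Of all 11303 genes tested 1588 passed under this setting. With 1 unwanted factor from housekeeping genes the rises of BMP1 (0.53, adjusted p 0.227), BMP8A (0.11, adjusted p 0.893), ID1 (0.77, adjusted p 0.313) and ID3 (0.02, adjusted p 0.982) were lost in edgeR's test. ID2 no longer passed either (adjusted p 0.235), although its estimate of -2.84 was larger in size than the -1.79 of the main fit. BMP4 and BMPER remained past the thresholds, where 1782 of all genes tested passed.

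In TNFα-treated cells, where no vehicle library is involved, E2 raised SMAD7, ID3, BMP8B, BMP1 and BMP4 and lowered BMPER. For each gene that rose, replicate 3 was the highest of the E2+ TNFα libraries. SMAD7 and BMPER were past the study's thresholds, against 5.56% of all genes tested (3.55% upward and 2.01% downward). The median log2 fold change was 1.13 over the 9 genes and 0.04 over all genes. At an adjusted p of at most 0.1 the 9 genes gave 5 rises and 1 fall, and of all genes 24.4% rose and 21% fell. Among the 6 genes that reached 1 RPKM in every library, SMAD7 passed the study's thresholds and none passed downward. The 6 genes that rose or fell showed no overlap between the groups, as did 46.8% of all genes. Removal of the GC and length trend moved the 9 values by 0.02 (BMPER) to 0.11 (ID2) on the log2 scale, and BMP8A then also rose.

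TNFα for 3 h without E2 raised BMP4, ID1, BMP8A, SMAD7, BMP8B and BMP1 relative to vehicle and lowered ID2 and BMPER, where 40.3% of all genes rose and 41.6% fell at an adjusted p of at most 0.1. Past the study's thresholds were BMP4 and ID1 upward and ID2 downward, against 26.7% of all genes (6.64% upward and 20% downward). BMP4 and ID1, at 1.53 and 1.52, lay just above the fold threshold. Among the 6 genes that reached 1 RPKM in every library, these 2 passed upward and none downward. Without vehicle replicate 2 or vehicle replicate 3 none of the 9 passed, as BMP4 and ID1 came under the fold threshold (down to 1.43 and 1.28) and ID2 is not tested without any one of the vehicle libraries. With the trend removed ID2 alone of the 9 passed, where 1206 of all 11303 genes tested did. BMP8B (0.12, adjusted p 0.164) and SMAD7 (0.03, adjusted p 0.807) then no longer rose in edgeR's test, while BMP1 and ID3 fell at an adjusted p of at most 0.1. The unwanted factor ended the rises of ID1 (0.55, adjusted p 0.455), BMP8A (0.33, adjusted p 0.660), BMP1, BMP8B and SMAD7 and the fall of BMPER in that test. With it ID3 fell (-1.02, adjusted p 0.0867), and BMP4 still rose (1.03, adjusted p 0.0429) but came under the fold threshold. ID2 stayed past the thresholds (-4.34, adjusted p 0.0688), where 1117 of all genes tested passed. In E2-treated cells, by contrast, none of the 9 genes passed either rule when TNFα was added, and 2 of them (ID1 and BMP8A) had an unadjusted p under 0.05. Nor did any of the 6 that reached 1 RPKM in every library pass the thresholds. Of all genes 0.407% passed the study's thresholds there, and 6% an adjusted p of at most 0.1. DESeq2 likewise placed none past the thresholds, and gave ID1 an adjusted p of 0.044 at a log2 fold change of -0.64. With the trend removed ID3 (0.59, adjusted p 0.0136) and SMAD7 (0.42, adjusted p 0.0411) rose in edgeR's test, and with the unwanted factor ID3 (0.43, adjusted p 0.0919) and BMP8A (0.59, adjusted p 0.0416). The 2 comparisons with vehicle share their control libraries, and the 2 comparisons of E2+ TNFα share the E2+ TNFα libraries.

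**Figure D2:**
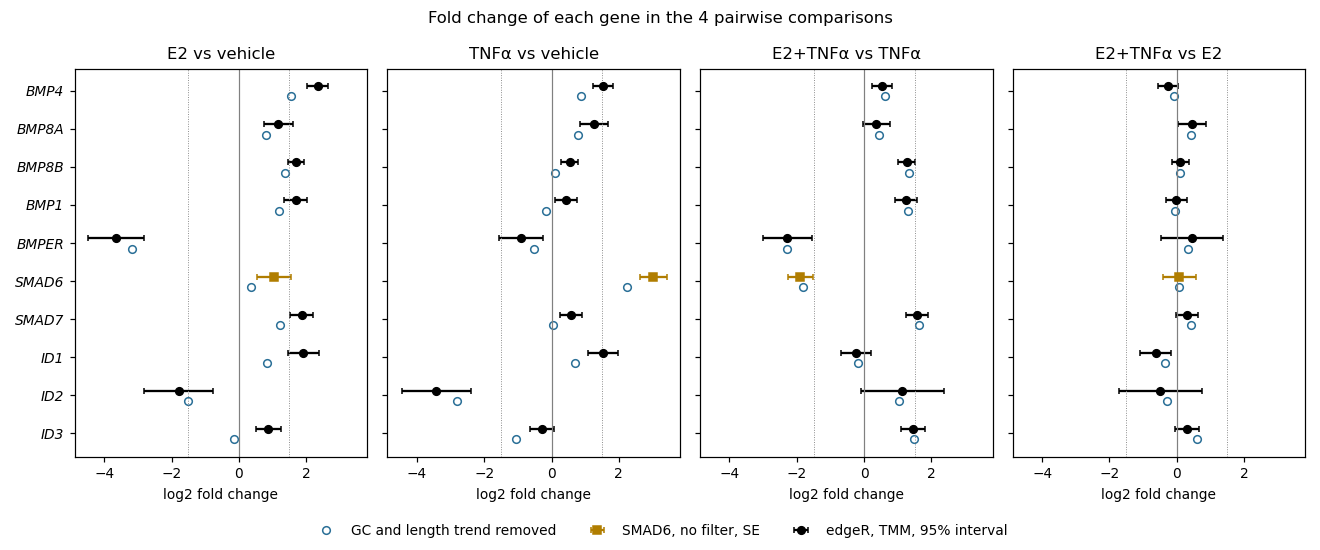
Log2 fold change of each gene (horizontal axis) in the 4 pairwise comparisons. Black points are the edgeR estimates with 95% intervals, open circles the estimates with the GC and length trend removed, and SMAD6 is drawn as a square with its SE from the fit without a filter. Dotted lines mark 1.5 in either direction. The open circles lie closer to 0 than the black points for most genes in the comparisons with vehicle and nearly on them in E2+ TNFα relative to TNFα.

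BMP4 (chromosome 14 of hg38, 53949736 to 53956836, minus strand) encodes a secreted ligand of the type 1 receptors BMPR1A and BMPR1B. It was at 30.0, 30.2 and 29.9 CPM in vehicle, 93.1, 95.7 and 76.2 in TNFα, 148, 156 and 160.1 in E2, and 113, 112 and 158 in E2+ TNFα libraries. Every treated library was above every vehicle library, the E2 libraries were all above the TNFα libraries, and E2+ TNFα replicate 3 lay within the range of the E2 libraries while the other 2 lay below it. The log2 fold change was 2.34 (SE 0.145, adjusted p 3.62e-09) for E2 and 1.53 (SE 0.141, adjusted p 2.19e-07) for TNFα relative to vehicle, in edgeR's test. With the trend removed these became 1.56 and 0.88. E2+ TNFα exceeded TNFα by 0.54 (SE 0.138, adjusted p 0.00665), a 1.45-fold difference. Its difference from E2 was -0.27 with a 95% interval of -0.56 to 0.02.

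BMP8A and BMP8B encode closely related ligands of the 60A subgroup and lie close to each other on chromosome 1 (39491634 to 39529869 on the plus strand and 39757182 to 39788861 on the minus strand). BMP8A was at 5.13, 4.51 and 4.14 CPM in vehicle, 11.6, 10.3 and 11.96 in TNFα, 10.1, 11.02 and 10.6 in E2, and 16.6, 10.9 and 16.001 in E2+ TNFα libraries. All treated libraries were above vehicle, and the TNFα and E2 libraries overlapped. BMP8B was at 27.0, 27.2 and 24.9 CPM in vehicle, 40.2, 36.6 and 40.6 in TNFα, 81.7, 87.7 and 91.9 in E2, and 97.9, 82.8 and 100.2 in E2+ TNFα libraries. Here the 6 libraries with E2 were all above the 6 without it. E2 raised BMP8B 2.40-fold in TNFα-treated cells (log2 1.27, SE 0.116, adjusted p 6.00e-07 in edgeR), whereas BMP8A differed by 0.37 with a 95% interval of -0.03 to 0.77, and rose by 0.43 (adjusted p 0.0163) with the trend removed. Relative to vehicle, BMP8B changed by 1.70 with E2 and 0.54 with TNFα, and BMP8A by 1.17 and 1.27. These became 1.36 and 0.12 (adjusted p 0.164 in edgeR, so that the rise with TNFα was lost), and 0.80 and 0.78, with the trend removed. The ratio of BMP8B to BMP8A in RPKM was 5.68 to 6.50 in vehicle, 3.66 to 3.82 in TNFα, 8.57 to 9.34 in E2 and 6.36 to 8.18 in E2+ TNFα libraries, so the groups overlapped only between vehicle and E2+ TNFα.

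The 2 BMP8 genes cannot be fully separated by reads of 50 bases. Of the windows of 50 bases in the exons of BMP8A, 25.4% occurred exactly elsewhere in the genome, as did 27.48% of those of BMP8B, and 1466 windows were common to both. Both also overlap a gene on the opposite strand (PPIEL over 416 bases of BMP8A and PPIE over 122 bases of BMP8B), and whether the counting used strand is not stated. Their kinship extends upstream. The 250 bases before the RefSeq start of each gene (GRCh38.p14) had 209 matching bases in an alignment of 263 columns (79.47%). They are shown for that likeness, 5′ to 3′ on the gene's strand, with matches to motifs bound by SMADs in capitals.
BMP8A (chr1:39491386-39491635, plus strand): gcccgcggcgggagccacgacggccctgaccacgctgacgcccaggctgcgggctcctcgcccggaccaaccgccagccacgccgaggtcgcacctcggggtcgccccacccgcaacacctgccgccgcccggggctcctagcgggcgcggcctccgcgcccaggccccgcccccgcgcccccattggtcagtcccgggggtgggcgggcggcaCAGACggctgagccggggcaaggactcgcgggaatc
BMP8B (chr1:39788866-39789115, minus strand): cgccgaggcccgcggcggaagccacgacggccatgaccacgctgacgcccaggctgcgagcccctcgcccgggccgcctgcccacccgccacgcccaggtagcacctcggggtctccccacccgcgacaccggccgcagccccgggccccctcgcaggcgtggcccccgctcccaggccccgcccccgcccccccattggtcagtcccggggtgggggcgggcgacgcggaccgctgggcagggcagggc
The motifs searched on both strands of the 250 bases were GGCGCC, the SMAD box CAGAC, which reads as GTCTG on the opposite strand, and the palindrome GTCTAGAC, which was added after the sequence of SMAD6 had been seen. They occurred in 16.38%, 38% and 0.1823% of 35116 promoter windows of this length. The single CAGAC of BMP8A has no counterpart in capitals in BMP8B. Both windows held 2 copies of GGTCA on one strand or the other, the core motif of the estrogen response element, which 32.65% of all windows hold. BMP8B also held 1 match to the NFκB consensus motif (7.464% of all windows) and BMP8A none. This motif was GGGRNNYYCC, where R is A or G and Y is C or T. It was searched on the gene's strand only, in these windows and in all others. Neither held the full element GGTCANNNTGACC (0.03987%). Such matches describe the letters of the window and are not binding sites.

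BMPER (chromosome 7, 33904911 to 34155872, plus strand) encodes a secreted protein that binds BMPs and tunes their activity outside the cell. With E2 it had the largest fall of the 10 genes. Its reads numbered 469, 540 and 593 in vehicle, 213, 185 and 129 in TNFα, 26, 3 and 4 in E2, and 31, 33 and 37 in E2+ TNFα libraries, which came to 11.2, 12.5 and 12.8 CPM, 7.04, 6.06 and 6.74 CPM, 1.79, 0.479 and 0.363 CPM, and 1.92, 1.15 and 1.11 CPM. Each library with E2 was below each library without it, and the TNFα libraries were below vehicle. E2 lowered BMPER 4.87-fold in TNFα-treated cells (log2 -2.28, SE 0.342, adjusted p 9.33e-05 in edgeR), and 12.5-fold relative to vehicle (-3.65, SE 0.390, or -3.18 with the trend removed). Without E2 replicate 1, which held most of that group's reads, the latter was -4.96. TNFα relative to vehicle gave -0.91 (SE 0.301, adjusted p 0.0124), and -0.52 with the trend removed. Between E2+ TNFα and E2 the difference was 0.46 with a 95% interval of -0.46 to 1.38. It ranged from 0.05 without E2 replicate 3 to 1.73 without E2 replicate 1. The 250 bases upstream of BMPER are shown because it fell with E2 where most of the others rose, with capitals as above.
BMPER (chr7:33904665-33904914, plus strand): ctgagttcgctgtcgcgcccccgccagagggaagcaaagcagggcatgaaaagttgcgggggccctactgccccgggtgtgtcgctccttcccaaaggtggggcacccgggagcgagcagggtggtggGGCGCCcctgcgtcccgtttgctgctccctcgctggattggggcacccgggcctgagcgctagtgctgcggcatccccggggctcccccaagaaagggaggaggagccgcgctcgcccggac
The capitals mark 1 GGCGCC. The window also held 2 matches to the NFκB consensus motif, described above, and no core motif of the estrogen response element.

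**Figure D3:**
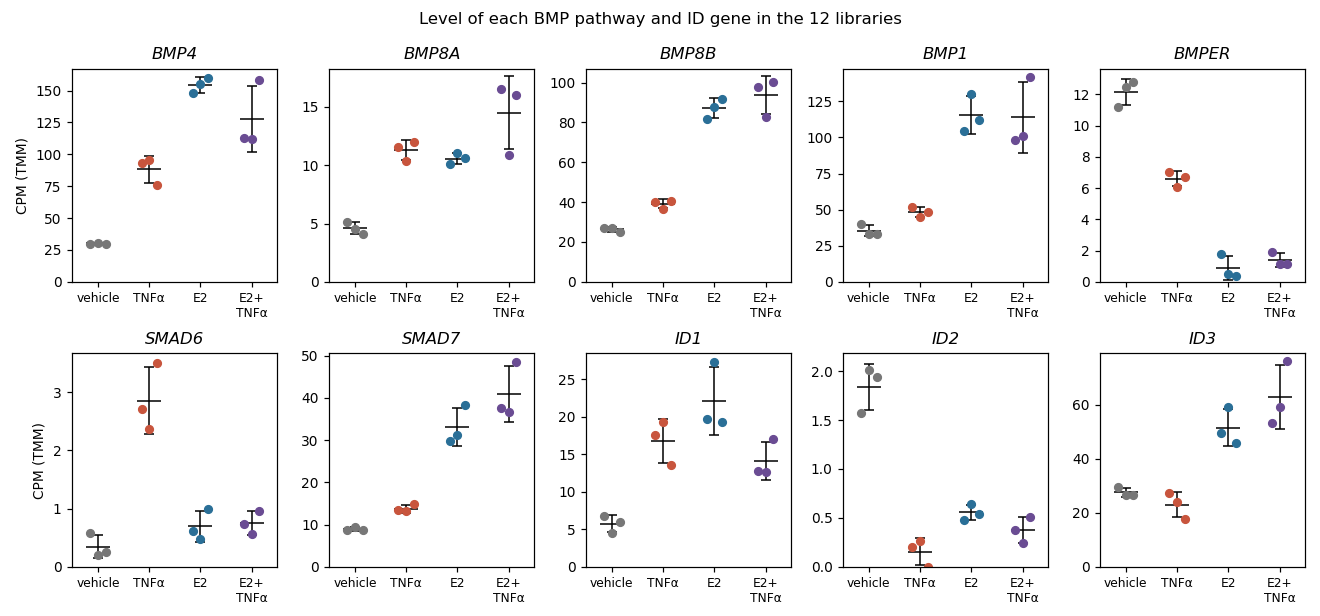
Level of each gene in CPM (vertical axis, a separate scale from 0 for each gene) in the 12 libraries, with 1 point per library, the mean as a long bar and the SD as a whisker. BMP1, BMP4, BMP8B, ID3 and SMAD7 have all 6 libraries with E2 above the others, BMPER has them below, and SMAD6 is high in the TNFα libraries only.

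BMP1 (chromosome 8, 22165140 to 22212326, plus strand) is named with the ligands but encodes a metalloprotease that cleaves procollagens and the BMP antagonist chordin. Its level was 39.8, 33.3 and 32.9 CPM in vehicle, 51.8, 44.6 and 48.6 in TNFα, 105, 130.3 and 112 in E2, and 98.6, 101 and 142 in E2+ TNFα libraries. All 6 libraries with E2 were above all 6 without it. E2 raised BMP1 2.37-fold in TNFα-treated cells (log2 1.24, SE 0.152, adjusted p 1.29e-05 in edgeR) and 3.21-fold relative to vehicle (1.68, SE 0.155, or 1.18 with the trend removed). The change with TNFα relative to vehicle was 0.43 and turned to -0.17 with the trend removed. In E2-treated cells TNFα gave a difference of -0.01 with a 95% interval of -0.33 to 0.31.

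The inhibitory SMADs, which both block signalling at the receptors, differed from each other. SMAD7 (chromosome 18, 48919853 to 48950711, minus strand) also inhibits the TGFβ receptors and was at 8.66, 9.44 and 8.74 CPM in vehicle, 13.3, 13.1 and 14.8 in TNFα, 29.9, 31.1 and 38.3 in E2, and 37.7, 36.7 and 48.5 in E2+ TNFα libraries. None of the TNFα libraries reached the E2 libraries, and E2+ TNFα overlapped with E2. E2 raised it 3.00-fold in TNFα-treated cells (log2 1.58, SE 0.153, adjusted p 1.10e-06 in edgeR). Without E2+ TNFα replicate 3 this was 1.44, under the fold threshold, with SMAD7 still risen. Relative to vehicle it changed by 1.86 with E2 (SE 0.156, 1.24 with the trend removed) and by 0.59 with TNFα (SE 0.153, 0.03 with the trend removed).

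SMAD6 (chromosome 15, 66702336 to 66782000, plus strand), which acts chiefly on BMP receptors, had 24, 9 and 12 reads in vehicle, 82, 72 and 67 in TNFα, 9, 3 and 11 in E2, and 12, 16 and 32 in E2+ TNFα libraries. This came to 0.572, 0.208 and 0.259 CPM, 2.71, 2.36 and 3.4995 CPM, 0.619, 0.479 and 0.997 CPM, and 0.742, 0.559 and 0.959 CPM. The 3 TNFα libraries were above all 9 others, and the vehicle, E2 and E2+ TNFα libraries overlapped. In the fit of all genes E2 lowered SMAD6 in TNFα-treated cells by 1.90 on the log2 scale (SE 0.378, adjusted p 0.00105 in edgeR), where 6.72% of 12443 genes passed the thresholds. TNFα relative to vehicle gave 3.03 (SE 0.391, adjusted p 4.27e-06), and 2.25 with the trend removed, but 1.44 (adjusted p 0.471) with 1 unwanted factor from housekeeping genes. E2 relative to vehicle gave 1.05 (SE 0.500, adjusted p 0.0671), and 0.37 (adjusted p 0.50) with the trend removed. The difference between E2+ TNFα and E2 was 0.08 (SE 0.482).

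The ratio of SMAD7 to SMAD6 in RPKM was 3.89 to 5.09 in the TNFα libraries and 46.4 to 60.1 in the E2+ TNFα libraries. It was 13.9 to 41.6 in vehicle and 35.3 to 59.6 in E2 libraries, which overlapped. These ratios rest on few reads of SMAD6, the fewest being 3 in E2 replicate 2. The upstream sequences of the 2 genes are shown because their levels parted in TNFα-treated cells.
SMAD6 (chr15:66701986-66702235, plus strand): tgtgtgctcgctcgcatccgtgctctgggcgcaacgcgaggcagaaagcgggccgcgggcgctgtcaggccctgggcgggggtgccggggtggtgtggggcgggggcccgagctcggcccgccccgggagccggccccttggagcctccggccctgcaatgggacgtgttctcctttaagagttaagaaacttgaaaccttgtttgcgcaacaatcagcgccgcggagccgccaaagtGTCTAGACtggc
SMAD7 (chr18:48950966-48951215, minus strand): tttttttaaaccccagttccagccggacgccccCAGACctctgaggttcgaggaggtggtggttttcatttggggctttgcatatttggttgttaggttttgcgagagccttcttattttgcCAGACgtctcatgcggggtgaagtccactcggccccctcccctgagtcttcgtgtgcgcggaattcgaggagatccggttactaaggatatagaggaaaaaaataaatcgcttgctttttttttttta
In SMAD6 the capitals mark the palindrome GTCTAGAC, which 0.1823% of all windows hold, and in SMAD7 they mark 2 copies of CAGAC. The windows end 100 bases (SMAD6) and 254 bases (SMAD7) before the gene start in the count table. The bases between were not searched, so a motif missing from a window may still lie there. Neither window held a match to the NFκB motif on the gene's strand, or to the core motif of the estrogen response element on either strand.

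The ID genes also differed from each other. ID1 (chromosome 20, 31605283 to 31606515, plus strand) was at 6.70, 4.53 and 5.95 CPM in vehicle, 17.5, 19.2 and 13.5 in TNFα, 19.7, 27.3 and 19.3 in E2, and 12.8, 12.6 and 17.1 in E2+ TNFα libraries. The vehicle libraries were below the 9 others, the E2 libraries were the highest, and TNFα overlapped with E2+ TNFα. ID1 changed by 1.91 with E2 (SE 0.218, adjusted p 1.24e-06 in edgeR) and by 1.52 with TNFα (SE 0.213, adjusted p 1.10e-05) relative to vehicle, and by 0.84 and 0.69 with the trend removed. E2 in TNFα-treated cells gave a difference of -0.24 with a 95% interval of -0.68 to 0.21. In E2-treated cells TNFα gave -0.63 (SE 0.212, adjusted p 0.126), or -0.34 (adjusted p 0.201 in edgeR) with the trend removed. There ID1 was the only one of the 9 genes whose E2+ TNFα libraries did not overlap with the E2 libraries, as was the case for 15.4% of all genes. The 250 bases before ID1 are shown because ID1, unlike SMAD7, did not rise with E2 in TNFα-treated cells.
ID1 (chr20:31605039-31605288, plus strand): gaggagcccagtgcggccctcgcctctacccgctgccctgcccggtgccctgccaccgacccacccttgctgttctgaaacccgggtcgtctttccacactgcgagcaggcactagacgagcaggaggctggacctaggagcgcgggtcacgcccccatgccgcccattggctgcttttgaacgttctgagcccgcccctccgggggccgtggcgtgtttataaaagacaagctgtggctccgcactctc
This window has no capitals, as none of the 3 SMAD motifs occurred in it. It held 1 core motif of the estrogen response element.

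ID3 (chromosome 1, 23557930 to 23559794, minus strand) was at 29.4, 26.6 and 26.5 CPM in vehicle, 27.2, 24.1 and 17.8 in TNFα, 49.5, 59.1 and 45.8 in E2, and 53.1, 59.2 and 76.1 in E2+ TNFα libraries. The 6 libraries with E2 were above the 6 without it, and vehicle overlapped with TNFα. E2 raised ID3 2.73-fold in TNFα-treated cells (log2 1.45, SE 0.172, adjusted p 9.53e-06 in edgeR), just under the fold threshold. Relative to vehicle E2 gave 0.87 (SE 0.172), which turned to -0.15 (adjusted p 0.29) with the trend removed. TNFα relative to vehicle gave -0.28 (adjusted p 0.145), and -1.05 (adjusted p 2.65e-06) with the trend removed. With 1 unwanted factor from housekeeping genes it gave -1.02 (adjusted p 0.0867 in edgeR). ID3 and ID1 thus differed in TNFα-treated cells. The ratio of ID3 to ID1 in RPKM was 1.25 to 1.54 in TNFα, 2.15 to 2.50 in E2, 4.13 to 4.69 in E2+ TNFα and 4.37 to 5.83 in vehicle libraries, with overlap only between the last 2 groups.

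ID2 (chromosome 2, 8681983 to 8684453, plus strand) was near the limit of detection outside vehicle. Its reads numbered 66, 87 and 90 in vehicle, 6, 8 and 0 in TNFα, 7, 4 and 6 in E2, and 6, 7 and 17 in E2+ TNFα libraries, at 1.57, 2.01 and 1.94 CPM, 0.198, 0.262 and 0 CPM, 0.481, 0.639 and 0.544 CPM, and 0.371, 0.245 and 0.509 CPM. All vehicle libraries were above all others, and the E2 libraries were above the TNFα libraries. ID2 fell with TNFα (log2 -3.42, SE 0.477, adjusted p 1.08e-05 in edgeR) and with E2 (-1.79, SE 0.480, adjusted p 0.00305) relative to vehicle, and these became -2.80 and -1.503 with the trend removed. E2 in TNFα-treated cells gave 1.13 with a 95% interval of -0.11 to 2.38. Of the windows of 50 bases in its exons, 21.61% occurred exactly elsewhere in the genome, so its counts are less certain than those of ID1 and ID3, which had none. Summed over the 3 genes, the ID level was 33.1 to 37.7 CPM in vehicle, 31.3 to 44.9 in TNFα, 65.6 to 87.0 in E2 and 66.3 to 93.7 in E2+ TNFα libraries, most of it from ID3.

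**Figure D4:**
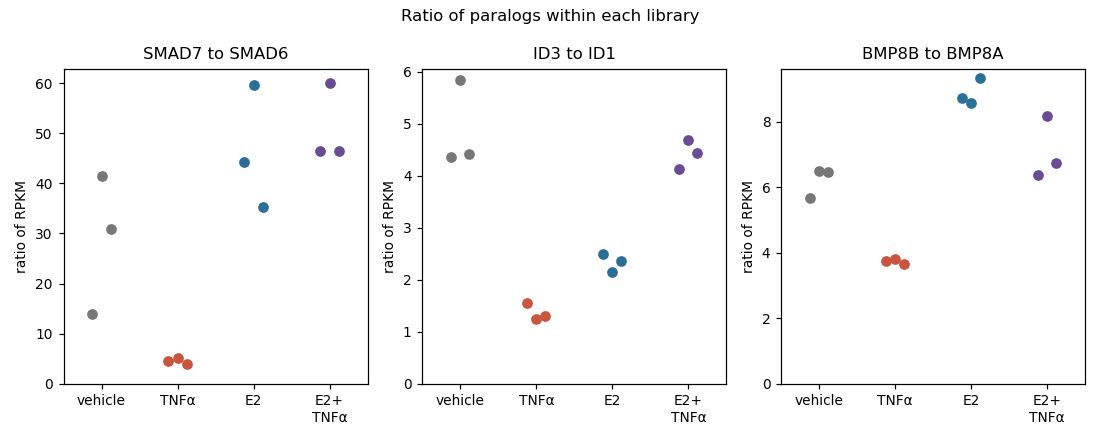
Ratio of RPKM between paralogs within each library (vertical axes from 0), with 1 point per library in the 4 groups. In all 3 panels the TNFα libraries have the lowest ratios, at 3.89 to 5.09 for SMAD7 to SMAD6, 1.25 to 1.54 for ID3 to ID1 and 3.66 to 3.82 for BMP8B to BMP8A.

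The interaction term asks whether the change with E2 differed between TNFα-treated and other cells, and its estimate includes the vehicle libraries. Past the study's thresholds were BMP4 (-1.80, SE 0.197, adjusted p 2.40e-06) and ID1 (-2.15, SE 0.3002, adjusted p 1.89e-05) downward and ID2 (2.93, SE 0.759, adjusted p 0.00305) upward in edgeR's test, against 31.8% of all genes tested (22.5% upward and 9.29% downward). Among the 6 genes that reached 1 RPKM in every library BMP4 and ID1 were the 2 downward calls, with none upward, and ID2 is a gene tested through its vehicle levels. At an adjusted p of at most 0.1 alone, 8 of the 9 genes passed (not SMAD7), as did 76.6% of all genes. SMAD6 gave -2.95 (adjusted p 7.43e-04) in the fit of all genes. With the trend removed BMP4 was at -0.96 and ID1 at -1.03, both still with an adjusted p under 0.1, and ID2 at 2.52 and SMAD6 at -2.19 stayed past the thresholds. ID3 moved from 0.58 (adjusted p 0.0426) to 1.65 (adjusted p 1.92e-06 in edgeR) and so passed them upward, whereas BMP1, BMP8A, BMP8B and BMPER no longer passed an adjusted p of 0.1. Of all genes tested 1582 passed the thresholds with the trend removed and 1392 with the unwanted factor. Under the latter none of the 9 did, with ID2 at 3.96 (adjusted p 0.142 in edgeR), and SMAD6 gave -1.16 (adjusted p 0.642). For SMAD7 the interaction was -0.28 (adjusted p 0.249) and turned to 0.39 (adjusted p 0.0522) with the trend removed, in edgeR's test.

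The rest of the pathway was taken from 8 lists of 81 genes, of which 46 were in the table and 41 were tested. In TNFα-treated cells 3 of the 41 passed the study's thresholds with E2, all downward, and 11 rose and 13 fell at an adjusted p of at most 0.1. Of all genes tested 5.56% passed the thresholds, and 24.4% rose and 21% fell. The median log2 fold change was -0.19, against 0.04 over all genes. The 3 were GDF15, a distant member of the ligand family and a stress-induced cytokine, FST, which encodes the activin and BMP antagonist follistatin, and RUNX2, a transcription factor of bone and of invasive breast cancer cells. GDF15 was at 31.3, 18.2 and 47.0 CPM in TNFα libraries and at 0, 0.210 and 0.210 CPM in E2+ TNFα libraries, where it had 0, 6 and 7 reads (log2 -7.58, SE 0.585, adjusted p 9.69e-08 in edgeR). FST was at 67.8, 71.6 and 66.5 CPM and at 19.9, 18.7 and 18.6 CPM (-1.84, SE 0.132), and RUNX2 at 15.4, 14.7 and 19.7 CPM and at 5.01, 5.59 and 4.88 CPM (-1.68, SE 0.244). For each of the 3 genes the groups did not overlap. The same 3 passed with the trend removed. FST reached 1 RPKM in every library, whereas GDF15 and RUNX2 did so in no library with E2 and were thus tested through the groups in which they were high.

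The signal transducing SMADs differed among themselves. SMAD9 did not pass the filter and is given, after its values were seen, from the fit of all genes. It was at 4.17, 6.13 and 5.37 CPM in vehicle, 0.562, 0.492 and 0.209 in TNFα, 4.26, 5.59 and 5.62 in E2, and 5.69, 7.41 and 6.86 in E2+ TNFα libraries. The TNFα libraries, with 17, 15 and 4 reads, were below all 9 others. E2 in TNFα-treated cells gave 3.91 on the log2 scale (SE 0.313, adjusted p 1.01e-07 in edgeR), or 3.82 with the trend removed, and TNFα relative to vehicle gave -3.55 (SE 0.310, adjusted p 9.94e-08), or -2.20. E2 relative to vehicle gave -0.03 (adjusted p 0.918), which became 1.46 (adjusted p 3.35e-05) with the trend removed. None of the 3 SMADs of this kind in the main test passed either rule in the comparison without vehicle. With E2 in TNFα-treated cells SMAD1, SMAD4 and SMAD5 gave -0.55, -0.42 and -0.40 on the log2 scale, with adjusted p of 0.145 to 0.190 in edgeR's test. With the trend removed they were at -0.59, -0.61 and -0.77 (adjusted p 0.0490, 0.00354 and 2.74e-05), so that all 3 fell at an adjusted p of at most 0.1. Of the receptors and co-receptors, the pseudoreceptor gene BAMBI rose (1.13, adjusted p 0.000319), the co-receptor gene RGMB fell (-0.65, adjusted p 0.00123), both named after their values were seen, the type 2 receptor gene BMPR2 rose (0.89, adjusted p 0.0113), ACVR2B (-0.92, adjusted p 0.0186) and the type 1 receptor gene ACVR1 (-0.42, adjusted p 0.0292) fell, and BMPR1A gave 0.18 (adjusted p 0.658). The E protein gene TCF3 fell by 0.36 (adjusted p 0.0974), and TCF12 gave -0.32 (adjusted p 0.257), or -0.44 (adjusted p 0.0152, a fall) with the trend removed. None of the 41 passed either rule when TNFα was added to E2-treated cells, where 7 had an unadjusted p under 0.05, and DESeq2 placed none past the thresholds. Of all genes 0.407% passed the thresholds there and 6% an adjusted p of at most 0.1, and 51 of 11303 passed the thresholds with the trend removed. With the trend removed 4 passed an adjusted p of 0.1 there, none of them past the fold threshold, namely GDF11 (-0.56, adjusted p 0.0134 in edgeR), TOB2 (0.30), GATA2 (0.35) and CRIM1 (0.28), all named after their values were seen.

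Relative to vehicle more of the listed genes passed, and fewer did so with the trend removed, as was also true over all genes. Of the 41, 29 reached 1 RPKM in every library, while SMAD1, ACVR2B and TLL1 did so in vehicle only, which favours a fall from it. NBL1, with 9, 6 and 11 reads in vehicle, reached 1 RPKM in no vehicle library. It did so in 1 TNFα, 3 E2 and 1 E2+ TNFα libraries, which favours a rise from vehicle. With E2, 4 were past the thresholds upward and 14 downward, against 9.87% and 20.6% of all genes (3 upward and 6 downward among the 29), among them SMAD1, SMAD4 and SMAD5 (-1.68, -1.77 and -1.93), BMPR1A (-2.09), ACVR2B (-2.02), TCF12 (-2.37) and SMURF2 (-3.22), which encodes a ubiquitin ligase for SMADs and receptors. After removal of the trend 3 were upward and 2 downward, 4 of which had passed before. Of all 11303 genes tested 1588 then passed, 50.7% of them upward. SMAD1, BMPR1A, ACVR2B and TCF12 were then at -1.06, -1.13, -0.74 and -0.72, SMAD4 turned to 0.09 and SMAD5 to 0.50, and SMURF2 was at -1.56. PPM1A, which encodes a phosphatase that acts on SMADs and is named after its values were seen, turned from -1.14 to 1.60 and passed upward. The antagonist gene NBL1 (4.62, or 3.86 with the trend removed) and the homeobox target MSX2 (2.17 under both settings) kept their direction. With TNFα, 5 were past the thresholds upward and 7 downward, against 6.64% and 20% of all genes (3 and 4 among the 29), and 3 and 2 with the trend removed. Under the latter setting 1206 of all 11303 genes passed, 44.1% of them upward. GDF15 (4.84, or 3.72), MSX2 (2.17, or 2.28) and NBL1 (3.60, or 2.78) were upward and FSTL1, a follistatin-like antagonist (-2.58, or -2.01), and the tolloid protease gene TLL1 (-3.49, or -1.51) were downward in both. The interaction passed the thresholds upward for 10 of the 41 genes and downward for 5, against 22.5% and 9.29% of all genes. With the trend removed it did so for 1 upward and 5 downward, where 1582 of all 11303 genes passed, 57.2% of them upward.

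**Figure D5:**
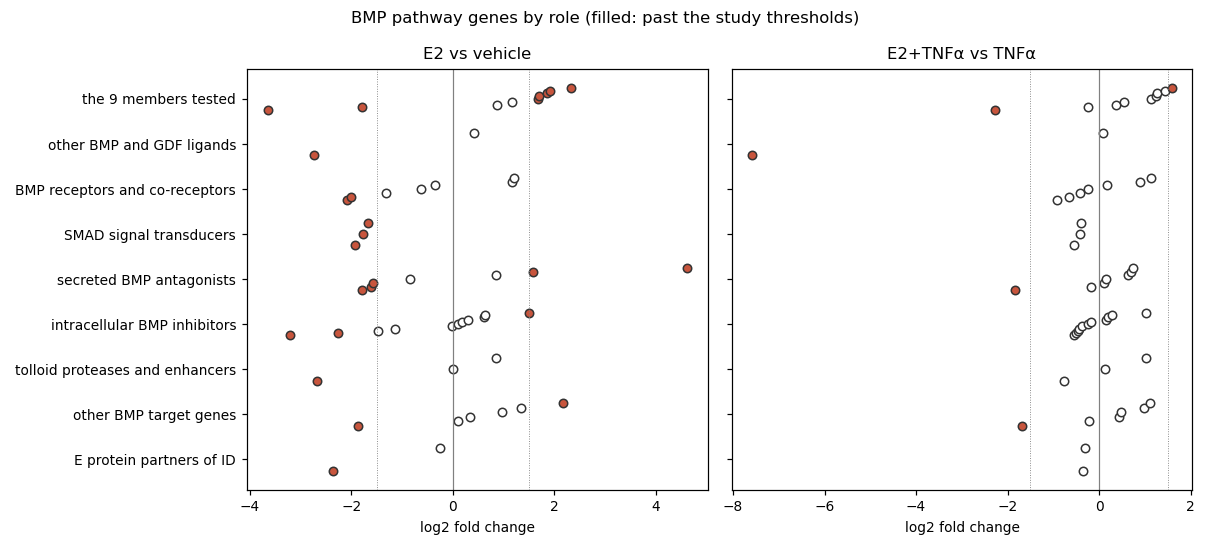
Log2 fold change (horizontal axis) of the 9 tested genes and of the 41 other pathway genes by role, for E2 relative to vehicle and E2+ TNFα relative to TNFα, with 1 point per gene from the main edgeR fit and points past the study's thresholds filled. In the left panel 18 of the 41 other genes are filled. In the right panel only GDF15, FST and RUNX2 of the 41 are filled, besides SMAD7 and BMPER of the 9 tested genes.

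Of the genes whose log2 CPM followed a member most closely over the 12 libraries (Pearson r, as a description, since the libraries share 4 groups and the trend with GC content), NRGN (0.995), CCDC51 (0.982) and PGD (0.980) were nearest to ID1. TCIRG1 (0.978), KLC1 (0.978) and LZTS3 (0.969) were nearest to ID3, and CCDC71L (0.994), THBS2 (0.994) and SYNE3 (0.993) to SMAD7. ID2 had no neighbour above 0.941 (ARMCX2, followed by THEM5 at 0.937 and PSG5 at 0.935). No gene was nearest to 2 of the 4.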

How the data were processed

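The authors deposited raw read counts per gene, made with featureCounts from stranded, paired-end libraries after mapping with TopHat2 2.1.0 to hg38. They are neither normalized nor corrected with RUVseq. Of 12567 entries, 46 exact repeats and 70 further entries that duplicated another symbol in locus and counts were dropped. RPKM was derived here with the exon length listed in the table, and 11303 genes with at least 1 RPKM in at least 3 libraries were tested with TMM normalization in edgeR 4.0.16 and its quasi-likelihood F test (R 4.3.3), two-sided, with 4 group means in one fit and the thresholds of the study. Depth was 7.65 to 39.9 M (megareads) a library. Between replicates the chi-square per degree of freedom was 9.49 to 66.0, and no library was taken for a copy of another. In the E2+ TNFα group it was 51.5 and 66.0 for the pairs with replicate 3, the deepest of that group, and 18.4 between replicates 1 and 2.

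The alternatives were DESeq2 1.42.0 or its size factors, library size only, no filter, the replicate number as a block, a minimum of 10 counts in each of the libraries, 1 unwanted factor from 24 housekeeping genes, subtraction of a loess trend with GC content and length (span 0.3) fitted in each library, and each library left out in turn. The fit of all genes for SMAD6 and SMAD9 and the counts of list genes under each alternative were added after seeing the data. The members, the lists and the rule for the named genes (all members, all tested SMADs, receptors and E proteins, up to 4 genes past the thresholds in each other list, and 3 genes of like pattern for each ID gene and SMAD7) were chosen with earlier results of these data known. The steps were tested on simulated data. Upstream sequences are from RefSeq (GRCh38.p14), in which 9 of the 10 genes matched. Those of BMP4 and ID3 lie inside the gene model of the table and that of ID2 reaches 73 bases into it, and these are not shown. Those shown reach at most 6 bases into it or end before it, by 4 bases for BMP8B, 100 for SMAD6 and 254 for SMAD7. BMP1 had no match, so it has no upstream sequence here.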

Additional observations from a re-analysis of the deposited data

Results flagged for a closer look

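For 3 of the 9 genes tested, and for SMAD6 in the fit of all genes, the difference between the change with E2 in TNFα-treated and in other cells was past the study's thresholds, fold threshold included, by the test of the difference itself (the interaction term of edgeR's fit), as it was for 31.8% of the genes tested and 32.6% of the 12443 genes in the fit of all genes. At an adjusted p of at most 0.1 alone, 8 of the 9 genes passed, as did 76.6% of all genes tested. The difference was -1.80 on the log2 scale for BMP4, whose change with E2 was 0.54 with TNFα and 2.34 without it. It was -2.15 for ID1, with -0.24 and 1.91. Of the 6 genes that reached 1 RPKM in every library, BMP4 and ID1 were the 2 past the thresholds. It was 2.93 for ID2, with 1.13 and -1.79, on at most 17 reads in each library other than vehicle. For SMAD6, in the fit of all genes, it was -2.95, with -1.90 and 1.05. All 4 estimates include the vehicle libraries, and their values with the GC and length trend removed were -0.96, -1.03, 2.52 and -2.19, so that BMP4 and ID1 came under the fold threshold. With 1 unwanted factor from housekeeping genes none of the 4 was past the thresholds, at -1.23 (adjusted p 0.0448) for BMP4, -0.996 (adjusted p 0.244) for ID1, 3.96 (adjusted p 0.142) for ID2 and -1.16 (adjusted p 0.642) for SMAD6, in edgeR's test. ID3, at 0.58 before, was past the thresholds at 1.65 with the trend removed.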

How the results depend on the processing

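Counts below are of genes past the study's thresholds, with the 9 tested members in the same order of comparisons (E2 against vehicle, TNFα against vehicle, E2+ TNFα against TNFα, E2+ TNFα against E2, interaction), where the main values were 7, 3, 2, 0 and 3. Subtracting the trend with GC content and length left 1588 genes and 3 members for E2, 1206 genes and 1 member for TNFα, and 1582 genes for the interaction, and turned ID3 with E2 to -0.15, BMP1 with TNFα to -0.17, and the interaction of BMP1 to 0.13 and of SMAD7 to 0.39. The same with the replicate block gave 1584 genes and 2 members, 1215 genes and 1 member, and 1572 genes, with the same values for these 4 estimates. One unwanted factor from housekeeping genes gave 1782 genes and 2 members, 1117 genes and 1 member, and 1392 genes and 0 members. It turned SMAD6 with E2 to -0.72 (all genes fitted; its calls for TNFα and the interaction were lost), BMP1 with TNFα to -0.58, BMP1 in E2+ TNFα relative to E2 to 0.15, and the interactions of BMP1, BMP8A, BMP8B and SMAD7 to 0.74, 0.27, 0.050 and 0.17. Scaling by library size only left 1 member for TNFα, turned BMP1 in E2+ TNFα relative to E2 to 0.11 and the interaction of SMAD7 to 0.030, and moved the median RPKM of the members from 3.31 to 3.84 in vehicle and from 11.8 to 10.6 in E2 libraries. It moved the median log2 fold change of all genes to -0.38, -0.19, 0.13 and 0.31 in the comparisons with vehicle, E2+ TNFα relative to E2 and the interaction. A minimum of 10 counts in every library dropped ID2 and BMPER and left 0 members for TNFα, 1 for E2+ TNFα relative to TNFα, and 24 genes for E2+ TNFα relative to E2 (46 in the main fit). The cause of these changes was not tested, apart from the dropped genes.

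Of the genes past the thresholds with E2, 32.4% were upward, against 17.4% by library size only, 51.9% with the unwanted factor and 50.7% with the trend removed. With TNFα the share was 24.9%, against 42.97% and 44.1% under the last 2 settings, and for the interaction 70.8%, against 83.9%, 56.1% and 57.2%. Of the 41 other pathway genes, 18, 12, 3, 0 and 15 passed, against 5, 5, 3, 0 and 6 with the trend removed and 4, 2, 3, 0 and 4 with the unwanted factor. Over all 11303 genes tested the counts were 3447, 3016, 628, 46 and 3593 in the main fit. They were 1588, 1206, 594, 51 and 1582 with the trend removed and 1782, 1117, 605, 44 and 1392 with the unwanted factor.

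With 1 library left out, the members passing for TNFα ranged from 0 to 3 and those for E2+ TNFα relative to TNFα from 1 (without E2+ TNFα replicate 3) to 3. Genes passing in E2+ TNFα relative to E2 ranged from 32 (without E2 replicate 1) to 84 (without E2 replicate 3), BMP1 there from -0.20 to 0.086 and SMAD6 from -0.15 to 0.39. Same-numbered libraries correlated at -0.482 to 0.467 in their deviations from the group means, and 5 of 18 pairs exceeded 0.1, so the numbers were not taken to pair the libraries. Differently numbered libraries reached 0.656 (vehicle replicate 1 with E2+ TNFα replicate 3) and -0.549 (vehicle replicate 1 with E2+ TNFα replicate 2). The main fit does not model variation shared across groups in this way, and its source was not tested. With the replicate number as a block the genes passing were 3453, 3018, 623, 36 and 3585 and the members 7, 3, 2, 0 and 3.

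Depth limits BMPER in the E2 libraries, ID2 outside vehicle and SMAD6 throughout, which had 3 to 26, 0 to 17 and 3 to 82 reads a library.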
